A study of Mus musculus with 22 samples.

Results

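Cluster 4 of the hypothalamic whole cells held astrocytes with high Gfap RNA, and its members were the 4109 cells that the deposited metadata placed in that cluster, of 54890 whole cells and of 79855 whole cells and nuclei in the series. All mice were male ob/ob animals, which lack leptin and are obese, fed chow and about 11 weeks old. They had received a single intracerebroventricular (icv) injection of 3 µg recombinant fibroblast growth factor 1 (FGF1) or of its vehicle, phosphate-buffered saline, and vehicle mice were pair-fed to the FGF1 mice. Whole cells came from 6 FGF1 and 6 vehicle mice killed on Day 5, with 1 library per mouse. Nuclei came from other mice, 3 per group on Day 1 and 2 per group on Day 5. The mediobasal hypothalamus was digested with enzymes to free the whole cells, and the authors had removed neurons, called doublets and clusters of which 1 sample held 50% of the cells.

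Astrocytes take up glutamate and potassium, supply lipids to neurons and wrap blood vessels with endfeet that carry the water channel aquaporin 4, encoded by Aqp4. When tissue is injured or stimulated they become reactive, and they then raise Gfap, which encodes the filament protein GFAP, together with the protease inhibitor gene Serpina3n and complement genes such as C4b. Clu encodes clusterin, a secreted chaperone and lipid carrier. In the hypothalamus, Gfap-rich astrocytes are common near the ventricle wall and the median eminence. FGF1 binds all FGF receptors, of which astrocytes mainly carry Fgfr3.

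All 5 genes that give the cluster its name were highest in cluster 4 among the 20 clusters. In CPM, the counts of unique molecular identifiers (UMIs) over all cells of a cluster scaled to a common total, Gfap stood at 823 in cluster 4 and at 98.2 in the next cluster, which was microglia-like. Aqp4 stood at 828 against 290 and Clu at 4300 against 2182, with cluster 1 next in each case. Serpina3n stood at 240 against 55.4 and C4b at 399 against 170. Gfap, Serpina3n, Aqp4 and C4b were also among the 10 genes with the largest fold over all other cells, at 14.2, 9.55, 7.89 and 5.83-fold. Papss2, Scara3 and Igsf1, at 7.43, 6.08 and 5.93-fold, ranked between Aqp4 and C4b. These genes helped to draw the cluster, so the values describe it and were not tested.

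Cluster 1 was the other astrocyte cluster, with 9471 cells. At a coarser clustering in the same metadata, 96.6% of cluster 4 cells and 98.2% of cluster 1 cells fell in the same group. In cluster 4, libraries of FGF1 mice held 501680 to 1398782 UMIs and those of vehicle mice 53617 to 398810. The values there rest on 421 to 802 cells per FGF1 mouse and on 43 to 351 per vehicle mouse. Those of cluster 1 rest on 40 to 813 and 423 to 2083 cells. The numbers of cells are given as the depth behind the values and were not compared between groups, because genes that set the clusters differed between FGF1 and vehicle mice. Median UMIs per cluster 4 cell were 1032 to 1638 in FGF1 mice and 1018 to 1492 in vehicle mice, and median mitochondrial shares lay between 12.3% and 15.2%. In 212 of the 4109 cells the barcode sequence occurred in another library too. In FGF1 mouse 6, Gfap, Serpina3n and C4b stood apart from the other 5 FGF1 mice. The main tests of FGF1 against vehicle in whole cells are therefore given with and without it for these 3 genes.

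Not every cell of the cluster had a Gfap UMI. With each cell thinned to 750 UMIs, the share with Gfap was 20.3% to 57.6% in FGF1 mice (median 27.6%) and 20.9% to 49.4% in vehicle mice (median 28.8%). Before thinning the medians were 35.8% and 38.4%. In cluster 1 the thinned share was 1.64% to 14% (median 5.67%) and 1.92% to 4.94% (median 2.94%). Oligodendrocyte-like cells of cluster 2, which should lack Gfap, gave 3.06% to 21.9% (median 5.85%) in FGF1 mice and 1.14% to 3.36% (median 1.99%) in vehicle mice, with median depths of 1083 to 2271 and 1095 to 1730 UMIs. The share in cluster 1 of FGF1 mice was thus at the level of background RNA, while that in cluster 4 exceeded the cluster 2 share in the medians of both groups. Aqp4 was found in 35.3% to 47.0% of cluster 4 cells of FGF1 mice and 20.9% to 42.0% of those of vehicle mice, against 3.20% to 11.3% and 2.53% to 4.87% in cluster 2.

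To see what set the cluster apart, its level of each gene was compared with that of cluster 1 in the same mouse. Of 6393 genes compared, 113 with at least 50 CPM in cluster 4 were higher there in all 12 mice, and 98 with at least 50 CPM in cluster 1 were lower. The clusters were drawn from the same genes, so these differences are a description. Differences are of log2 CPM, cluster 4 minus cluster 1, as the median over mice, and the median over all genes was -0.03. Gfap led, with a median difference of 3.49 (lowest 2.31, highest 5.80) and mean levels of 1028 and 81.2 CPM. It was 4.54 in the median vehicle mouse and 2.96 in the median FGF1 mouse.

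Among the other leading genes, Sulf2, a sulphatase that trims heparan sulphate, the co-receptor of FGFs, differed by 2.44. The glutamine carrier Slc38a1 differed by 1.99 and the taurine carrier Slc6a6 by 1.96. Igfbp5, which binds insulin-like growth factors, differed by 1.63, and the secreted BMP antagonist gene Nbl1 by 1.36. Cpe, the prohormone-processing carboxypeptidase E, rested on far more reads, with 6120 CPM in cluster 4 and 2381 in cluster 1, a difference of 1.37. Il6st, the shared receptor chain gp130 of interleukin-6 type cytokines, differed by 1.2, and Id4, a repressor of bHLH factors, by 1.32. The stearoyl-CoA desaturases Scd1 (0.88) and Scd2 (0.80) were among the 30 leading genes, of which Scd2 was the last and Evi5, at 0.79, was just outside.

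Of the label markers, C4b differed by 1.45, Aqp4 by 0.78 (0.37 to 1.65) and Clu by 0.35, all higher in cluster 4 in 12 of 12 mice. Serpina3n differed by 1.23 and was higher in 11 of 12 mice. Reads of Serpina3n can be shared with its close Serpina3 relatives, so its counts are uncertain. By list, the tested filament genes, Gfap and Vim, had a median difference of 2.41. The 3 tanycyte markers compared were all above 0, with a median of 0.96, including Gpr50 at 1.09, and so were the 3 ependymal markers, with a median of 0.61. Their part in the result was not tested.

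The genes lower in cluster 4 included early response genes. Fos, an AP-1 subunit that rises within minutes of stimulation, differed by -1.43, with mean levels of 476 CPM in cluster 4 and 1413 in cluster 1. Of 14 immediate early genes, 2 were above 0, and the list had a median of -0.65. Gria2, an AMPA receptor subunit, differed by -1.23, Cldn10, an astrocyte claudin, by -1.12, and F3, tissue factor, by -0.87. The nuclear RNA Malat1 differed by -1.08, at 40413 and 86333 CPM. Cd27 differed by -1.26 from low counts. Stmn2, at -0.76, closed the list of 15, and Sdf2, at -0.75, was next. RNA of other cells moved with these values. The neuron, microglia and oligodendrocyte lists, with 4 genes each, had medians of -0.66, -0.65 and -0.36 with no gene above 0, and Ctss and Stmn2 are members of the first 2 lists. Their part in the result was not tested. Ribosomal protein genes (median -0.18, 3 of 82 above 0) and nuclear genes of oxidative phosphorylation (-0.26, 11 of 82 above 0) also lay mostly below 0.

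**Figure D1:**
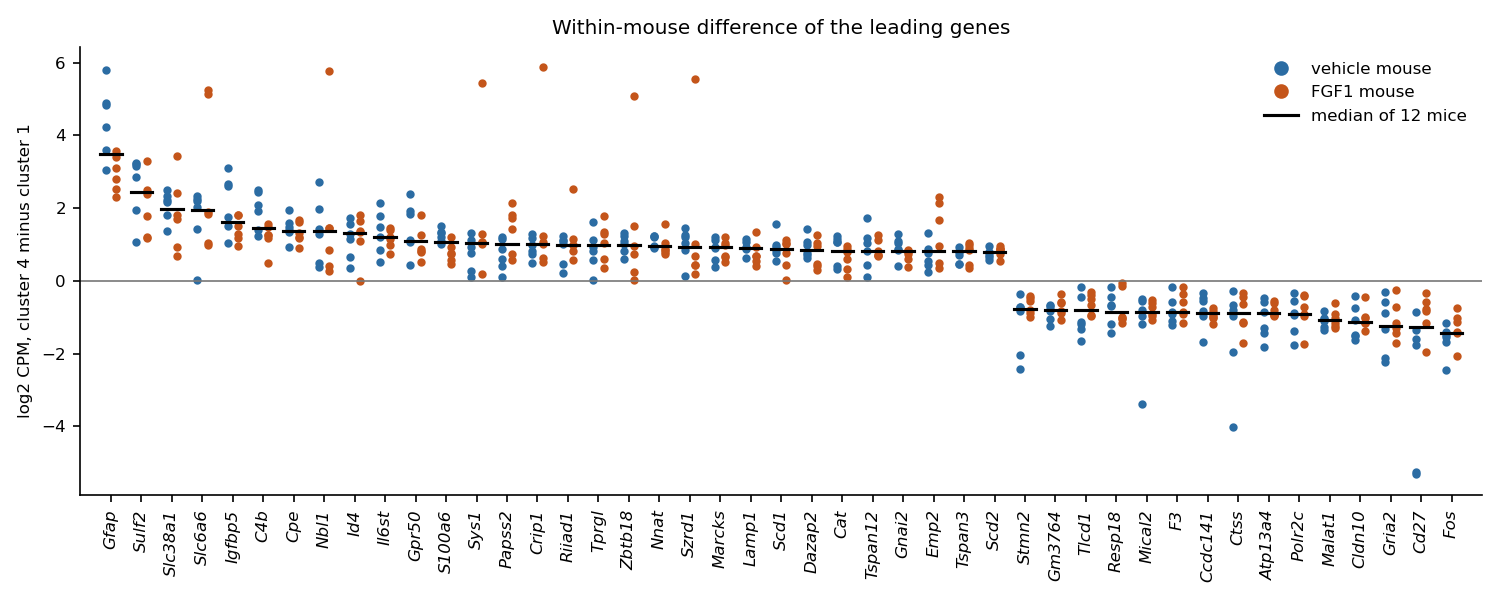
Within-mouse difference in log2 CPM between cluster 4 and cluster 1 (vertical axis) for the 30 leading higher and 15 leading lower genes (horizontal axis). Each point is 1 mouse (blue, vehicle; orange, FGF1) and each bar the median of 12 mice. Gfap lies between 2.31 and 5.80 in all mice, with the vehicle mice mostly above the FGF1 mice. Points above 5 other than those of Gfap come from mice with no UMI of the gene in cluster 1.

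The next question was what FGF1 changed within cluster 4. UMI counts were summed per mouse, and FGF1 was compared with vehicle by edgeR's quasi-likelihood test across all genes, with a false discovery rate (FDR) by Benjamini-Hochberg. Of 5967 genes tested, 23 (0.385%) passed an FDR of 0.05, of which 13 (0.218%) rose and 10 (0.168%) fell. Aqp4, Mlc1, Clu, Fabp7 and Abca1, genes of endfeet and of lipid transport, rose, and Tsc22d3, Neat1, Slc6a6 and Gstm1 fell. The called changes had absolute log2 fold changes of 0.53 to 1.46. All FGF1 mice lay above, or all below, all vehicle mice for 65 genes (1.09%), of which 12 were called. Gfap, C4b and Serpina3n were not called. These 3 genes, like Aqp4 and Clu, helped to place cells in the cluster, so their levels within it, and the tests of them there, are conditioned on the clustering and do not measure how FGF1 changed them in astrocytes as a whole.

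Gfap in cluster 4 lay at 415 CPM in the lowest, 751 in the median and 2059 in the highest FGF1 mouse, and at 459, 1224 and 2451 in vehicle mice. The groups overlapped almost fully. The log2 fold change was -0.49 (SE 0.487, FDR = 0.873), and -0.91 (FDR = 0.536) without FGF1 mouse 6, the highest of its group. C4b lay at 288, 318 and 958 CPM in FGF1 mice and 212, 423 and 868 in vehicle mice. Its groups overlapped too, with -0.24 (SE 0.416, FDR = 0.948), and -0.64 (FDR = 0.502) without FGF1 mouse 6.

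Serpina3n lay at 153, 176 and 985 CPM in FGF1 mice and at 39.3, 114 and 253 in vehicle mice. The other 5 FGF1 mice sat in a narrow band inside the vehicle range, and mouse 6 far above it. The log2 fold change of 0.94 (FDR = 0.785) became 0.13 (FDR = 0.923) without that mouse, whereas with batch as a term it was 1.10 (FDR = 0.00719). Each of the 6 batches of the metadata held 1 FGF1 and 1 vehicle mouse, and Serpina3n was higher in the FGF1 mouse in 5 of them.

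**Figure D2:**
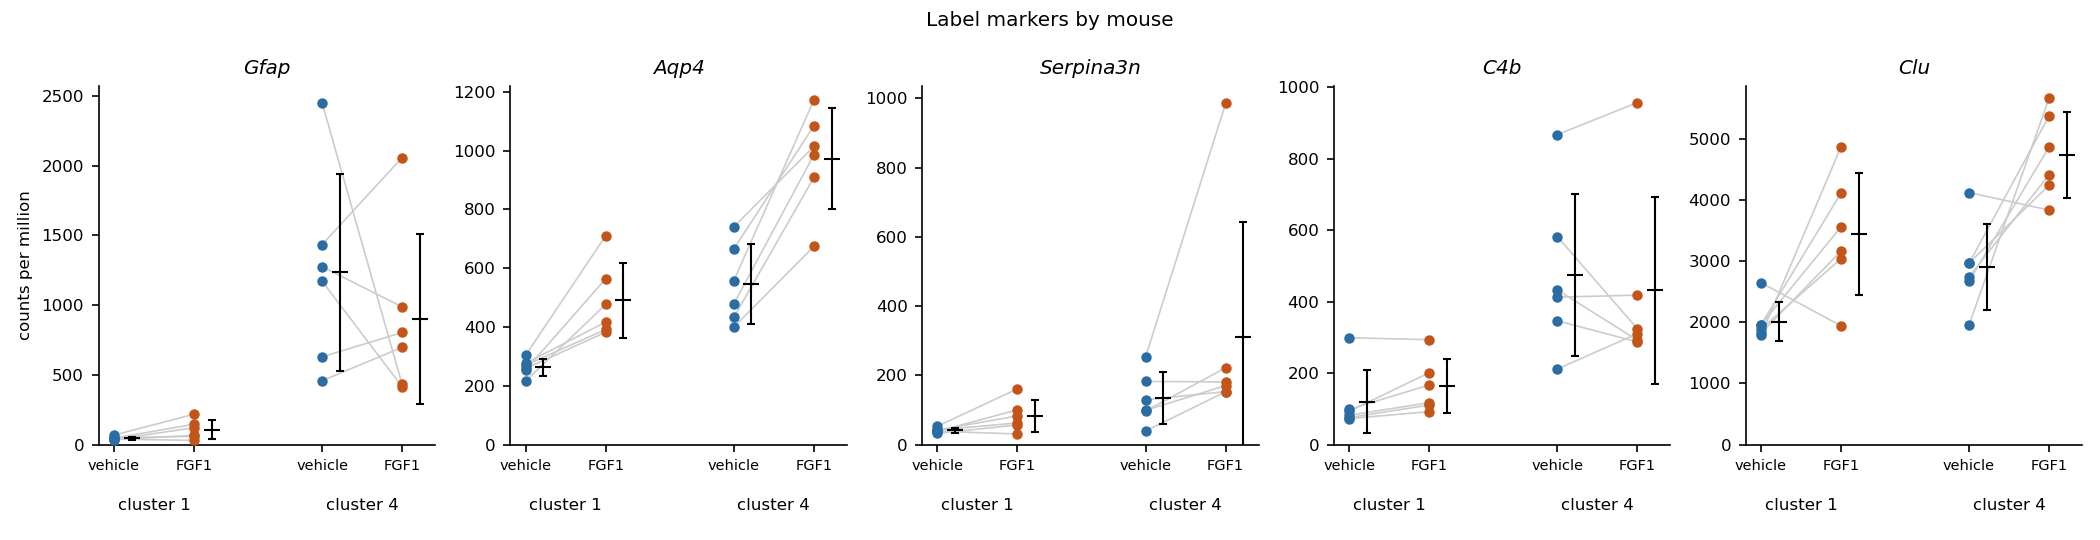
Levels of the 5 label markers in CPM (vertical axes, scaled within each cluster) by mouse, in cluster 1 and cluster 4 and by group. Points are mice, grey lines join the FGF1 and vehicle mouse of a batch, and bars show mean and SD (n = 6 per group). In cluster 4 the groups overlap for Gfap, Serpina3n and C4b, and 6 of 6 batches have more Aqp4 in the FGF1 mouse.

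Of 14 genes of the perivascular endfoot tested, Aqp4 and Mlc1 rose and none fell, where 0.218% of all genes tested rose and 0.168% fell. Aqp4 lay at 674, 999.9 and 1172 CPM (lowest, median, highest) in FGF1 mice and 400, 518 and 741 in vehicle mice. The ranges met only at their edges, and the FGF1 mouse was higher in 6 of 6 batches, with a log2 fold change of 0.83 (SE 0.139, FDR = 0.000249). Mlc1 encodes a membrane protein of astrocyte junctions that is mutated in a leukodystrophy. It lay at 1313, 1522 and 1612 CPM against 818, 961 and 1192, so all FGF1 mice were above all vehicle mice, with 0.59 (SE 0.114, FDR = 0.00293). The other 12 were not called, among them the potassium channel gene Kcnj10 (0.46, FDR = 0.161) and the connexin gene Gja1 (-0.09, FDR = 0.887).

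Of 26 lipid genes tested, 3 rose (0.218% of all genes) and none fell (0.168%). Fabp7, the brain fatty acid binding protein of astrocytes and radial glia, lay at 459, 488 and 574 CPM in FGF1 mice and 111, 222 and 334 in vehicle mice. Its groups did not overlap, with a log2 fold change of 1.04 (SE 0.159, FDR = 0.000108). The FGF1 mice were the tighter group, but their libraries were larger, at 501680 to 1398782 UMIs against 53617 to 398810. Clu lay at 3835, 4641 and 5665 CPM against 1957, 2852 and 4122. It was higher in 5 of 6 batches, with overlap at the edges, by 0.70 (SE 0.126, FDR = 0.00293). Abca1, the cholesterol exporter, lay at 200, 310 and 370 CPM against 107, 161 and 245 and rose by 0.73 (FDR = 0.0383). The median of the lipid list was -0.29 against 0.00 over all genes tested, with 10 of the 26 above 0, where 50.08% of all genes were.

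RNA of these genes was also found at lower levels in cells of other types. Of the values given here, only Aqp4 in oligodendrocyte-like cells did not overlap between the groups. In oligodendrocyte-like cells Aqp4 lay at 74.2, 111 and 165 CPM in FGF1 mice and 37.8, 51.7 and 70.6 in vehicle mice, without overlap. In plain CPM the log2 ratio of its group medians was 1.10 there and 0.93 in cluster 4, and it was 0.42 in endothelial-like and 0.76 in microglia-like cells. In the same 3 cell types the ratio was 0.76, 0.13 and 0.11 for Fabp7, 0.52, -0.15 and -0.06 for Mlc1, and 0.40, -0.10 and 0.15 for Clu. The part of RNA shared between cell types in these rises was not tested.

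S100a11 had the largest fitted rise. It encodes a calcium-binding S100 protein and lay at 43.9, 76.7 and 95.2 CPM in FGF1 mice and 13.9, 23.2 and 41.3 in vehicle mice, without overlap, a log2 fold change of 1.46 (SE 0.323, FDR = 0.0172). In vehicle mice S100a11 rests on few UMIs, in libraries of 53617 to 398810 UMIs over all genes. Of 13 genes of its list (Cd44, galectins, S100 proteins and annexins), it was the only one called, where 0.218% of all genes rose. Of the 13, 12 were above 0 (median 0.32), where 50.08% of all genes were. Cd44, a hyaluronan receptor of reactive astrocytes, lay at 29.5 to 73.8 CPM against 0 to 49.5 (1.08, FDR = 0.288). For S100a11 the log2 ratio of the group medians was 2.09 in oligodendrocyte-like, 0.35 in endothelial-like and 1.10 in microglia-like cells, with overlap in each. Of these cells the endothelial-like held most of it, at 198 to 320 CPM in FGF1 mice and 131 to 222 in vehicle mice. The part of RNA shared between cell types was not tested.

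The promoters of Gfap and S100a11 are shown because these genes lead the difference between the clusters and the rise after FGF1. They come from RefSeq (GRCm38.p6), written 5′ to 3′ on the gene's strand. The Gfap window (chr11:102897201-102897450, minus strand) lies upstream of a start inside the annotated gene (chr11:102887336-102900912) and the S100a11 window is chr3:93520246-93520487 (plus strand). Capitals mark matches to the AP-1 motif TGANTCA.
Gfap: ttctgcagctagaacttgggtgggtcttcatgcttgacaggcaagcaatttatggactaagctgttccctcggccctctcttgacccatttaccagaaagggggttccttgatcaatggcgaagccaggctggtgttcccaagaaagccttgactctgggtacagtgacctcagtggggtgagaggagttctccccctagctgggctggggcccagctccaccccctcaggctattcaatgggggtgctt
S100a11: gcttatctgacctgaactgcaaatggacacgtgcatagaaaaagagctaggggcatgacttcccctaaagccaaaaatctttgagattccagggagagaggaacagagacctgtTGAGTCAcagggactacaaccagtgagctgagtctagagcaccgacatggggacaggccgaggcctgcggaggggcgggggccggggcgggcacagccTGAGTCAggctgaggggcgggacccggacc
The Gfap window held no match to TGANTCA, to the STAT motif TTCNNNGAA or to the glucocorticoid response element, searched on both strands. The S100a11 window held 2 AP-1 matches. AP-1 was matched in 6.75% of 32851 promoter windows and in 3.79% of the 6095 windows of genes tested in cluster 4, and STAT in 7.02% and 5.19%. Among 9 of the 13 risen genes with an entry, AP-1 was matched in S100a11 alone. Of the 30 leading genes 21 had an entry, and none of their 27 windows held any of the 3 motifs. Of the genes that fell 5 had an entry, and STAT was matched in 1 of their 8 windows, a window of Tsc22d3. A match is a match of letters and not a site shown to be bound.

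Bcas1, Sirt2 and Cnp rose as well. Bcas1, a marker of newly myelinating oligodendrocytes, lay at 106, 125 and 187 CPM in FGF1 mice and 0, 54.8 and 87.1 in vehicle mice (1.10, SE 0.256, FDR = 0.0362). Sirt2, a NAD-dependent deacetylase abundant in myelin, lay at 237, 355 and 371 CPM against 153, 204 and 228 (0.72, FDR = 0.0172). Neither gene overlapped between the groups. Cnp, a myelin enzyme that was named after its values were seen, lay at 546, 638 and 682 CPM against 353, 423 and 498 (0.53, FDR = 0.0383). The sum of the 6 oligodendrocyte markers was 1725 to 2569 CPM in FGF1 and 1004 to 3861 in vehicle mice of cluster 4 and overlapped fully, against 71105 CPM in the richest cluster. Of the 4 of these markers tested, none was called (0.385% of all genes) and 1 was above 0 (50.08% of all genes). For Sirt2 the log2 ratio of group medians was 0.17 in oligodendrocyte-like, 0.76 in endothelial-like and 0.7 in microglia-like cells, and 0.77 in cluster 4. In the same 3 other cell types it was 0.16, 0.35 and 0.2 for Bcas1 and 0.13, -0.65 and -0.16 for Cnp. In these other cells, only Sirt2 in endothelial-like cells did not overlap between the groups. The part of RNA shared between cell types was not tested. Exons of Bcas1, Cnp and Sirt2 overlap those of Bcas1os1, Dnajc7 and Nfkbib on the other strand.

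The remaining genes that rose were Id2 (0.61, FDR = 0.0305), a BMP-responsive repressor of differentiation, Tmem100 (0.97, FDR = 0.0383), another BMP target, the oxidoreductase gene Dhrs1 (0.76, FDR = 0.0242) and the dynein light chain gene Dynll1 (0.54, FDR = 0.0376). Id2 lay at 865, 1198 and 1722 CPM against 635, 792 and 917, with a small overlap. Id3 lay higher in the FGF1 mouse of every batch but was not called (1.01, FDR = 0.287). Of 17 Id, BMP and Notch genes, 15 had a fold change above 0, where 50.08% of all genes tested did. Of the 17, 1, Id2, was called higher (0.218% of all genes). In oligodendrocyte-like, endothelial-like and microglia-like cells the log2 ratio of group medians was 0.74, 0.37 and 0.05 for Dynll1, against 0.68 in cluster 4. For Dhrs1 it was 0.63, 0.40 and -0.11, against 0.88 in cluster 4. In these other cells, only Dynll1 in oligodendrocyte-like cells did not overlap between the groups. The part of RNA shared between cell types was not tested.

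Of the genes that fell, Tsc22d3 and Neat1 had the lowest FDR, and these 2 genes, Camk2n1, Gstm1 and Ppp1r1b did not overlap between the groups. Tsc22d3, the glucocorticoid-induced leucine zipper GILZ, lay at 259, 421 and 482 CPM in FGF1 mice and 570, 689 and 915 in vehicle mice. It was lower in 6 of 6 batches, at -0.86 (SE 0.137, FDR = 0.000122). Neat1, the RNA scaffold of nuclear paraspeckles, lay at 69.5, 98.4 and 146 CPM against 169, 233 and 294 (-1.11, SE 0.181, FDR = 0.000149), also lower in every batch. Of 10 glucocorticoid-responsive genes tested, Tsc22d3 alone was called, where 0.168% of all genes fell. Of the 10, 3 were above 0, where 50.08% of all genes were, and the median was -0.36. In oligodendrocyte-like, endothelial-like and microglia-like cells the log2 ratios of group medians were -0.23, -0.05 and -0.29 for Tsc22d3 and -0.25, -0.01 and -0.28 for Neat1.

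Slc6a6, the taurine carrier, was the only one of the 30 genes that lead cluster 4 over cluster 1 to be called lower within it. Because it sets the clusters apart, its level and test within cluster 4 are conditioned on the clustering. In the merged cells it had -0.07 (FDR = 0.878). In cluster 4 it lay at 56.8, 74.1 and 120 CPM in FGF1 mice and 98.3, 213 and 365 in vehicle mice. The groups overlapped through 2 low vehicle mice, and the log2 fold change was -1.32 (SE 0.268, FDR = 0.0317). Exons of Gm44981 overlap it on the other strand. Ppp1r1b, the phosphatase regulator DARPP-32, which tanycytes also carry, lay at 23.2, 36.4 and 55.2 CPM against 57.1, 94.8 and 157, without overlap (-1.19, FDR = 0.0172), and exons of 1700003D09Rik overlap it on the other strand. Dner, a Notch ligand of neurons, had -0.78 (FDR = 0.0362).

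The other genes that fell were Gstm1, a glutathione transferase (-0.53, FDR = 0.0219), Camk2n1, a CaMKII inhibitor (-0.67, FDR = 0.0172), Actg1, cytoplasmic actin (-0.60, FDR = 0.0219) and Snap25, a SNARE protein of nerve terminals (-0.99, FDR = 0.0383). 2900052N01Rik, a long noncoding RNA outside the rule for named genes, had -0.85. Values below 0 were found in other cells too. The log2 ratio of group medians in oligodendrocyte-like, endothelial-like and microglia-like cells was -0.61, -0.53 and -1.0 for Gstm1, -0.77, -0.68 and -0.84 for Camk2n1 and -1.21, -1.19 and -1.61 for Snap25. For 2900052N01Rik it was -1.88, -2.46 and -1.69, without overlap in any of them, against -0.72 in cluster 4. For Actg1 it was -0.26, 0.29 and 0.34. Gstm1 did not overlap between the groups in endothelial-like and microglia-like cells. The sum of 5 neuron markers in cluster 4 was 105 to 201 CPM in FGF1 and 131 to 383 in vehicle mice. The part of RNA from other cells in these falls was not tested.

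Lists of reactive, metabolic and signalling genes showed few calls, where 0.385% of all genes tested were called. In lists of these sizes, no call is near that share and is no result about a list. None of the 4 pan-reactive genes tested was called, with Vim, the filament vimentin, at 92.3 to 210 CPM against 19.7 to 182 (0.50, FDR = 0.734). None was called of 4 A1 and 2 A2 genes, of 8 FGF receptor and MAPK feedback genes, of 11 glutamate and GABA uptake genes, of 20 glycolysis, 10 heat shock and 17 matrix genes, of 11 antigen presentation genes or of 6 genes of the Stat3 pathway. Fgfr3 lay at a mean of 780 CPM against 754 (0.02, FDR = 0.993). Of 12 immediate early genes 3 were above 0 (median -0.34), where 50.08% of all genes were, and Fos had -0.48 (FDR = 0.698). Of 82 ribosomal protein genes 14 were above 0, and of 81 oxidative phosphorylation genes 17, against the same 50.08% of all genes. None was called in either list. Among 16 metallothionein and antioxidant genes Gstm1 alone fell (0.168% of all genes), and the cystine carrier gene Slc7a11 missed the threshold (0.53, FDR = 0.0568).

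**Figure D3:**
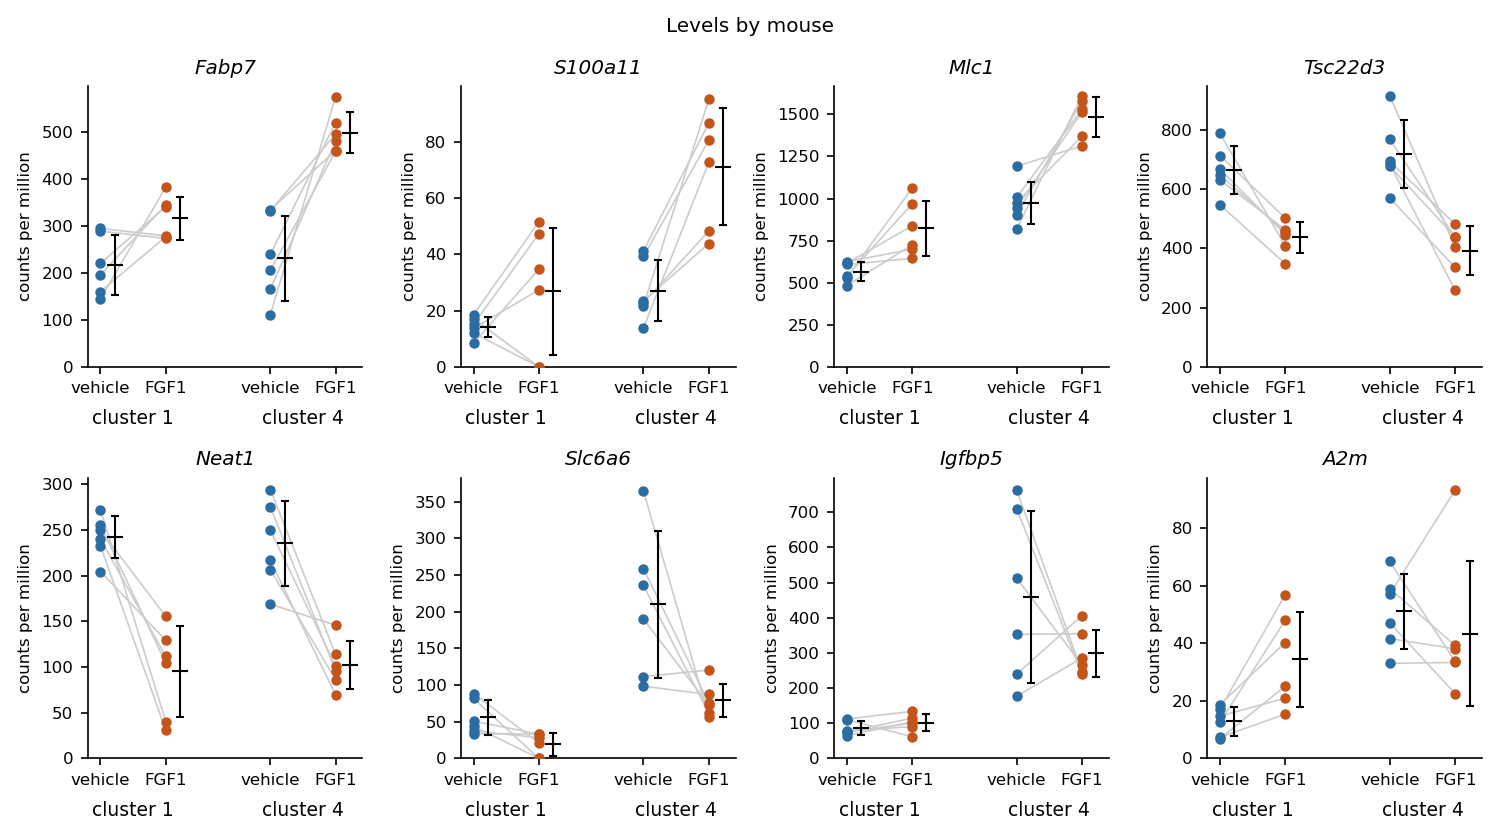
Levels in CPM (vertical axes, scaled within each cluster) of 8 genes by mouse in clusters 1 and 4. Points are mice (blue, vehicle; orange, FGF1), grey lines join the mice of a batch, and bars show mean and SD (n = 6 per group). In cluster 4, Fabp7, S100a11, Mlc1, Tsc22d3 and Neat1 do not overlap between the groups, whereas Slc6a6, Igfbp5 and A2m do.

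The calls differed in how firmly they held. The calls of Aqp4, Clu, Fabp7, Mlc1 and Tsc22d3 held under all 18 alternatives that changed the fit, which included leaving out each mouse, batch as a term and thinned libraries, and that of Neat1 under 17. Leaving out a mouse ended the other 17 calls in at least 1 of 12 fits, always with the direction kept. S100a11 was lost without vehicle mouse 22 (1.32, FDR = 0.136) or 29 (1.4, FDR = 0.0572), and Sirt2 without vehicle mouse 25 (0.68, FDR = 0.0656). Ppp1r1b was lost in 3 fits, without vehicle mouse 20, 27 or 35. Camk2n1 and 2900052N01Rik were lost in 4 fits, Dhrs1 in 5, and Actg1 and Gstm1 in 6. Bcas1, Slc6a6, Snap25 and Tmem100 were lost in 7, Cnp, Dner and Dynll1 in 8, and Abca1 and Id2 in 9. The largest FDR among these fits was 0.366, for Dner. Leaving out vehicle mouse 25 or 29 kept 9 of the 23 calls in each case, and leaving out vehicle mouse 20 kept 11. With libraries thinned to equal totals, 15 of the 23 genes were still tested and 7 kept their call. Among those lost were Sirt2 (0.40, FDR = 0.498), Camk2n1 (-0.49, FDR = 0.337) and Gstm1 (-0.40, FDR = 0.262). Dynll1 (0.51, FDR = 0.176) and Neat1 (-0.90, FDR = 0.1155) were lost there too. With batch as a term 17 genes were called, and 11 of the 23 calls were lost, those of Abca1, Actg1, Cnp, Dynll1, Gstm1, Id2, Sirt2, Slc6a6, Snap25, Tmem100 and 2900052N01Rik, with FDR from 0.0627 (Actg1) to 0.224 (Slc6a6).

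The same test was run in cluster 1 and in both clusters merged. These comparisons share mice, and the merged one shares cells, so values are given side by side. In cluster 1, 31 of 7679 genes (0.404%) were called. Of the genes of endfeet and lipid transport, Aqp4 had a log2 fold change of 0.94 (FDR = 0.000192) there, Clu 0.78 (FDR = 0.0110), Abca1 0.96 (FDR = 0.000383), Mlc1 0.53 (FDR = 0.0524) and Fabp7 0.53 (FDR = 0.162). S100a11 had 1.2 (FDR = 0.0438), Sirt2 0.87 (FDR = 0.000192), Tsc22d3 -0.62 (FDR = 0.0116) and Neat1 -1.01 (FDR = 0.000530). S100a11 had no UMI in cluster 1 of FGF1 mice 7 and 21. Of the 23 genes called in cluster 4, 11 were also called in cluster 1 in the same direction. Among the rest were Slc6a6 (-0.90, FDR = 0.363), Ppp1r1b (-0.20, FDR = 0.865), Dner (0.09, FDR = 0.930) and Bcas1 (0.39, FDR = 0.820). The test of the difference of the effects, an interaction described after the merged cells, called none of these 4. Gfap lay at 30.8, 93.6 and 218 CPM in cluster 1 of FGF1 mice and 36.6, 42.7 and 68.4 in vehicle mice (0.93, FDR = 0.285; 0.67, FDR = 0.290 without FGF1 mouse 6). Gfap was called in cluster 1 with batch as a term (0.96, FDR = 0.00241) and by DESeq2 (1.15, FDR = 0.0487). Serpina3n was called in cluster 1 (0.88, FDR = 0.0438; 0.71, FDR = 0.164 without FGF1 mouse 6), as was Vim (1.05, FDR = 0.0217). In 7 of 12 fits with a mouse left out, Serpina3n was no longer called in cluster 1 (FGF1 mouse 6, 7 or 10, vehicle mouse 20, 25, 27 or 29), and the same held without cells above 20% mitochondrial or ribosomal UMIs. Its log2 ratio of group medians was 1.015 in oligodendrocyte-like, 0.15 in endothelial-like and 1.43 in microglia-like cells, without overlap in the oligodendrocyte-like cells only. The part of RNA shared between cell types was not tested. As given above, the Gfap share in cluster 1 of FGF1 mice was at background.

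In the merged clusters, 1240 of 9830 genes (12.6%) were called. Gfap lay at 291, 479 and 1619 CPM in FGF1 and 66.4, 118 and 318 in vehicle mice. It was higher in the FGF1 mouse of every batch (2.21, SE 0.534, FDR = 0.0226), although a vehicle mouse lay above the lowest FGF1 mouse. Without FGF1 mouse 6 it was 1.75 (FDR = 0.0365), without FGF1 mouse 7 the FDR was 0.0525 and without vehicle mouse 20 it was 0.0514. Aqp4 rose by 1.53 (FDR = 8.08e-09) without overlap (5.16% of genes did not overlap, in either direction), Cpe by 1.21 (FDR = 1.16e-07) and Il6st by 1.13 (FDR = 6.03e-06). Of the 30 genes that lead cluster 4, 21 were called higher in the merged cells (background 6.55%), 0 in cluster 4 (background 0.218%) and 1, S100a6, in cluster 1 (background 0.221%). That count rests on the cells that the clusters were drawn from and is a description. All 6 pan-reactive genes tested were called higher in the merged cells. Among them, Serpina3n had 2.26 (FDR = 0.0301) and 1.46 (FDR = 0.00206) without FGF1 mouse 6. Its call was lost without FGF1 mouse 7 or without vehicle mouse 20, 25, 27, 29 or 35, with FDR from 0.0549 to 0.0653. C4b had 1.15 (FDR = 0.176) in the merged cells, 0.74 (FDR = 0.355) without FGF1 mouse 6, 1.75 (FDR = 0.0183) without vehicle mouse 22 and 1.25 (FDR = 2.81e-08) with batch as a term. In cluster 1 C4b had 0.27 (FDR = 0.923), 0.05 (FDR = 0.995) without FGF1 mouse 6 and 0.82 (FDR = 0.0353) without vehicle mouse 22.

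Merged libraries were deeper as well as of mixed makeup. Thinned to the UMI totals of cluster 4, an alternative chosen after seeing the data, the merged libraries gave 240 calls, and thinned to those of cluster 1 they gave 320. The call of Gfap was lost in both, at 2.00 (FDR = 0.0839) and 2.14 (FDR = 0.0537), as was that of Serpina3n, at 2.11 (FDR = 0.203) and 2.04 (FDR = 0.0732). A change in the level within cells and a change in the mix of the clusters cannot be told apart in the merged cells.

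**Figure D4:**
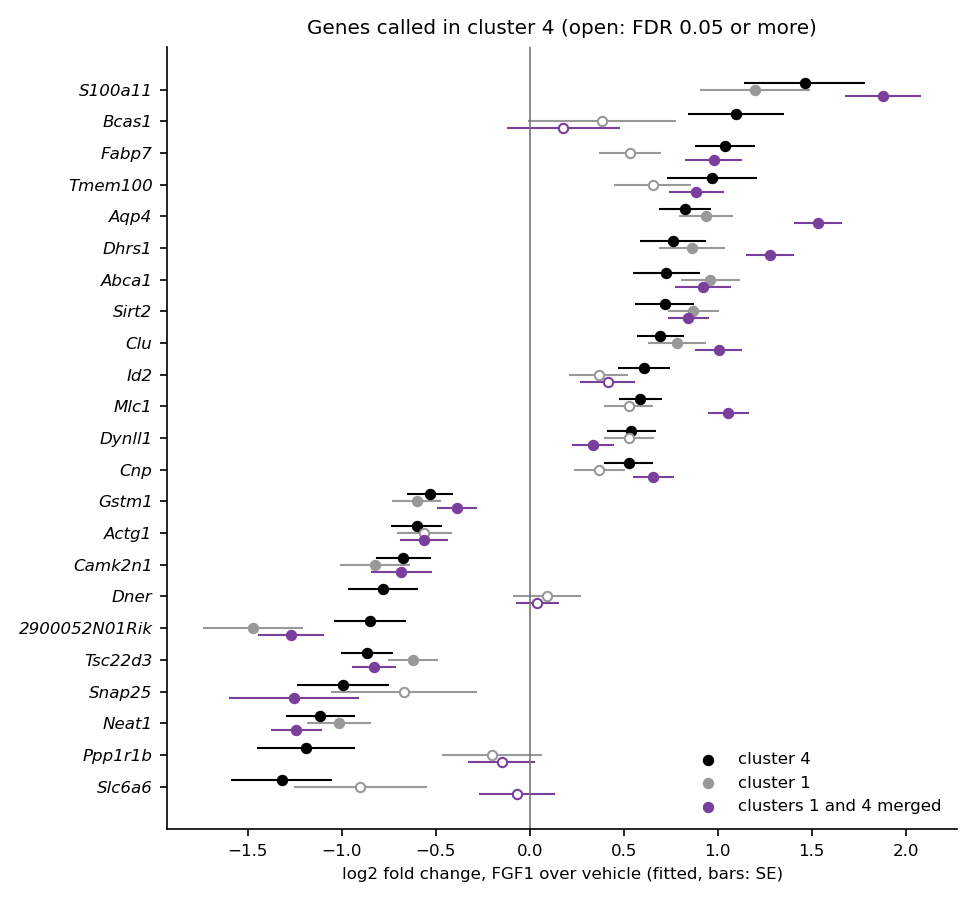
Fitted log2 fold changes, FGF1 over vehicle (horizontal axis, bars are SE, n = 6 mice per group), of the 23 genes called in cluster 4 (vertical axis), in cluster 4 (black), cluster 1 (grey) and both merged (purple). Filled points have an FDR below 0.05. Aqp4 lies near 0.83 and 0.94 in the clusters and at 1.53 when merged, while Dner, Ppp1r1b, Bcas1 and Slc6a6 are near 0 when merged.

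Whether the effect of FGF1 itself differed between the clusters was tested as an interaction within mice. Of 7528 genes, 2 (0.0266%) were called, Igfbp5 and A2m, both with a lower effect in cluster 4. Igfbp5 lay at 239, 275 and 406 CPM in cluster 4 of FGF1 mice and 177, 433 and 764 in vehicle mice, and at 61.6, 102 and 134 against 64.6, 76.4 and 112 in cluster 1. Vehicle mice spread widely in cluster 4, and the groups overlapped in both clusters, with log2 fold changes of -0.61 (FDR = 0.656) and 0.37 (FDR = 0.489). The difference of the effects was -1.0 (SE 0.181, FDR = 0.000276). Igfbp5 is among the genes that lead cluster 4 over cluster 1, so this value is conditioned on the split.

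A2m, alpha-2-macroglobulin, a protease inhibitor of the acute phase, lay at 22.5, 35.9 and 93.3 CPM against 33.0, 52.1 and 68.4 in cluster 4 and at 15.4, 32.7 and 56.9 against 6.88, 13.7 and 18.7 in cluster 1. It rose in cluster 1 (1.51, FDR = 0.0103) and not in cluster 4 (-0.34, FDR = 0.873), and the difference of the effects was -1.91 (SE 0.414, FDR = 0.0154). Its counts were low in some mice, as libraries held as few as 44014 UMIs in cluster 1 of FGF1 mice. In cluster 4 of vehicle mice they held as few as 53617. Both calls were lost with batch as a term (FDR = 0.125 for Igfbp5 and 0.546 for A2m) and without FGF1 mouse 10 or 36, and DESeq2 called no gene in this comparison. That of Igfbp5 was also lost without vehicle mouse 35 (FDR = 0.262) and with thinned libraries, and that of A2m without vehicle mouse 20 (FDR = 0.189) or 22 (FDR = 0.0680) and without cells above 20% mitochondrial or ribosomal UMIs. edgeR found 369 genes (4.9%) at an unadjusted p under 0.05 and DESeq2 188. Gfap had a difference of -1.62 (FDR = 0.836), which was -1.65 (FDR = 0.967) without FGF1 mouse 6, and it was called with batch as a term (-1.13, FDR = 0.000290) and without vehicle mouse 20 (-1.26, FDR = 9.04e-07) or 25 (-1.86, FDR = 2.52e-08). Gfap helped to split the clusters, so these values are conditioned on the split. The fit with batch as a term called 3 genes, Gfap, Gstp1 and Hes1, the last 2 named after their values were seen. Aqp4 had a difference of -0.18 (FDR = 0.996) and Dner -0.88 (FDR = 0.0876).

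The genes were then read in astrocyte nuclei, from mice that the clustering had not used. On Day 1, 3 FGF1 mice with 52 to 388 nuclei and 3 vehicle mice with 45 to 148 were compared, and 94 of 6063 genes (1.55%) were called. Of the 13 genes that rose in cluster 4, 12 were tested there and 2 were called higher, as were 1.39% of all genes tested. Of the 12, 8 had a fold change above 0 and 4 below, where 49.25% of all genes were above 0, and Abca1 was among those below (-0.84, FDR = 0.586). Of the 10 genes that fell, 9 were tested, 6 of them below 0 with none called lower (background 0.165%). Of the 30 genes that lead cluster 4, 24 were tested, with 16 above 0, a median of 0.15 and 1 called, S100a6. S100a11 lay at 346 to 684 CPM against 5.08 to 39.2 (4.79, SE 0.722, FDR = 0.00964), and Dhrs1 at 361 to 863 against 35.6 to 94.8 (3.06, FDR = 0.0307). Serpina3n lay at 661 to 1131 CPM against 10.2 to 39.2 (5.05, FDR = 0.00575), and Gfap at 1957 to 3443 against 392 to 731 (2.44, FDR = 0.0900). Neat1 had 1.38 (FDR = 0.464) and Tsc22d3 -1.82 (FDR = 0.261). Of the rises that held best in cluster 4, none was called here. Aqp4 had 0.62 (FDR = 0.874), Fabp7 0.08 (FDR = 0.994), Mlc1 -0.14 (FDR = 0.992) and Clu 1.62 (FDR = 0.432). Leaving out vehicle mouse 1 left no call on Day 1.

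On Day 5, with 2 FGF1 mice (110 and 384 nuclei) and 2 vehicle mice (33 and 208), 53 of 8484 genes (0.625%) were called. Of the 13 genes that rose in cluster 4, 12 had a fold change above 0, where 48.95% of all genes did, and 1 was called higher (background 0.0354%), Fabp7, at 278 and 525 CPM against 84.7 and 109 (2.02, SE 0.428, FDR = 0.0323). Of the 10 genes that fell, 9 were tested, 8 of them below 0 with none called lower (background 0.589%). Neat1 lay at 47.6 and 60.0 CPM against 101 and 219 (-1.41, FDR = 0.130), Aqp4 at 757 and 865 against 205 and 318 (1.67, FDR = 0.0571) and Gfap at 544 and 851 against 208 and 254 (1.61, FDR = 0.0696). None of these pairs overlapped, as was so, in either direction, for 41.4% of all genes tested. Serpina3n was called (2.25, FDR = 0.0259). Of the 30 leading genes of cluster 4, 27 were tested, with 21 above 0, a median of 0.47 and none called. Nuclei of all astrocytes were pooled, so they do not separate the clusters.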

How the data were processed

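The authors quantified 10x 3′ v2 libraries with Cell Ranger 1.2 on GRCm38 (mm10), counting intronic reads in nuclei too. The deposited values were UMI counts, whole numbers for each gene and barcode. Per the methods they removed whole-cell doublets with Scrublet and cells above 20% mitochondrial or ribosomal UMIs, yet 335 cells of cluster 4 lay above that limit in the percent columns that the authors deposited. The test was repeated without them, and no doublet caller was run here. Clusters, samples and batches came from the deposited metadata, in which UMI totals equalled the computed ones for all 54890 barcodes. Counts of the 12 whole-cell libraries totalled 2652897 to 11866269 UMIs. Names such as oligodendrocyte-like were given from marker genes.

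Raw counts were summed per mouse and cluster, and a mouse needed at least 10 cells. Genes were filtered with filterByExpr, libraries scaled by TMM, and FGF1 was compared with vehicle in edgeR 4.0.16 (robust glmQLFit, glmQLFTest, R 4.3.3) without covariates, separately in each cluster, in both merged and in nuclei. An FDR below 0.05 over all genes tested was a call. The SE was taken from the F statistic. The interaction was fitted with mouse as a block. Levels are TMM-scaled CPM within a comparison, except that sums of markers, levels in other clusters and levels over all clusters are plain CPM. Differences between the clusters used a prior count of 1. Shares of cells used 750 UMIs per cell, which every whole cell reached, and cover counting error only.

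The genes named were the 12 largest rises and 12 largest falls among calls with a mean of at least 20 CPM and no clone name, the 8 in each direction for the interaction, the 30 highest and 15 lowest leading genes with the same sign in all mice and at least 50 CPM, the label markers and members of the lists. The members of the cluster and the gene lists were chosen with earlier results of these data known. Promoters and positions used GRCm38 annotations, and Clu, C4b, A2m and Aqp4 had no promoter entry. Alternatives were DESeq2 1.42.0, RLE scaling, no filter, batch as a term, thinned libraries, at least 30 cells, which removed no mouse and so tested nothing, and leaving out each mouse. The fits were tested on simulated counts with known changes. Each mouse was 1 replicate.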

Additional observations from a re-analysis of the deposited data

Results flagged for a closer look

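In groups of 6 mice, the highest or lowest mouse was set against the gap to its nearest neighbour over the whole range, with Dixon's critical value at the 95% level, and 8 of 62 groups passed it, where chance gives about 1 in 20. FGF1 mouse 6 passed it in 5 of them. Its cluster 4 cells held Gfap at 2059 CPM (415 to 988 in the other 5 FGF1 mice), C4b at 958 (288 to 419), Serpina3n at 985 (153 to 222) and A2m, the acute-phase protease inhibitor gene, at 93.3 (22.5 to 39.2), each the highest of the group. Sirt2, at 237 CPM, was the lowest there (346 to 371 in the others). Camk2n1 was highest in FGF1 mouse 28 at 323 CPM, where the other FGF1 mice lay at 191 to 236. Cells were deepest in FGF1 mouse 10, with a median of 1638 UMIs (1032 to 1199 in the others), and in vehicle mouse 35, with 1492 (1018 to 1190), 2 mice of the same batch.

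The test of the difference of the FGF1 effect between the clusters called Igfbp5 (-1.0 on the log2 scale) and A2m (-1.91) in edgeR without a batch term. Igfbp5 is among the genes that lead cluster 4 over cluster 1, so its value is conditioned on the split. Both calls were lost with batch as a term (FDR = 0.125 and 0.546), by DESeq2 and without FGF1 mouse 10 or 36, that of Igfbp5 also without vehicle mouse 35 and with thinned libraries, and that of A2m also without vehicle mouse 20 or 22 and without cells above 20%. With batch as a term 3 other genes were called, among them Gfap (-1.13, FDR = 0.000290), a gene that helped to split the clusters. Igfbp5 was higher in the FGF1 mouse in 3 of 6 batches in cluster 4, and A2m, with low counts in some mice, in 2 of 6.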

How the results depend on the processing

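In cluster 4, 23 genes were called. With libraries thinned to equal totals 12 were, 7 of them among the 23. Without the filter on low counts 81 were called, and with 1 mouse left out 9 (without vehicle mouse 25) to 32 (without vehicle mouse 22). Counts were also more than 1.5 times lower without FGF1 mouse 7 (13) or 21 (14) and without vehicle mouse 20 (12), 27 (12) or 29 (10). In cluster 1, with 31 calls, batch as a term gave 100, thinning 2, no filter 95 and mice left out 17 (without FGF1 mouse 10) to 54 (without FGF1 mouse 28). In the merged clusters, with 1240 calls, thinning gave 803, thinning to the totals of cluster 1 or 4 gave 320 or 240, and mice left out gave 831 (without FGF1 mouse 7) to 1243. Fewer genes and UMIs enter a thinned fit. For the difference between the clusters, with 2 calls, DESeq2 and thinning gave 0, batch as a term 3, of which 0 were among the 2, no filter 33, removal of cells above 20% 1, and mice left out 0 (without FGF1 mouse 10 or 36) to 5. In Day 1 nuclei, with 94 calls, DESeq2 gave 200, no filter 214 and mice left out 0 (without vehicle mouse 1) to 116. In Day 5 nuclei, with 53, DESeq2 gave 58, of which 3 were among the 53, RLE scaling gave 81, no filter 173 and mice left out 13 (without FGF1 mouse 45) to 904 (without vehicle mouse 38). Apart from thinning, the cause of these shifts was not tested. The difference in Gfap between the clusters, 3.49, lay at 3.40 to 3.61 with a mouse left out.

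C4b changed sign and was not called at 0.15 in cluster 4 without vehicle mouse 22, where the fits with a mouse left out ran from -0.64 to 0.15, and at -0.10 in cluster 1 without cells above 20%. With a mouse left out, Igfbp5 in the interaction ran from -1.14 to -0.76 and A2m from -2.06 to -1.60. Same-numbered Day 1 mice were not treated as pairs in the main fit. Correlations of their deviations were -0.13, -0.49 and 0.50, and not every mouse correlated best with its own number. With 3 mice per group, these correlations cannot decide whether same-numbered mice shared a batch. A replicate block gave 107 calls. Depth limits cluster 4 in vehicle mice and cluster 1 in FGF1 mice, which rest on as few as 43 and 40 cells.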
